A study of Mus musculus with 8 samples.

Results

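The receptor genes for glutamate, GABA and glycine are the subject here, as mRNA in the developing mouse bowel. They were taken by symbol alone from the table of mRNA counts: the AMPA (*Gria*), kainate (*Grik*), NMDA (*Grin*), delta (*Grid*) and metabotropic (*Grm*) glutamate receptor genes, the GABA-A (*Gabr*) and GABA-B (*Gabbr*) receptor genes and the glycine receptor genes (*Glra*, *Glrb*). Of 29092 genes in the table, 45 met this rule, and 7 more symbols that fit it in GENCODE M21 had no entry (*Gabra6*, *Gabrp*, *Gabrr1*, *Glra1*, *Glra2*, *Glra4* and *Grm2*). The table has no gene without a read, so these 7 have no value. Bowel from stomach to anus was taken at embryonic stage E13.5 from *Ednrb-EGFP* embryos, offspring of heterozygous *Ednrb-EGFP* and wild-type C57BL/6J mice whose genotype GEO gives as wild-type, and was sorted by GFP. The GFP+ cells were enteric neural crest-derived cells (ENCDCs), the precursors of enteric neurons and glia (4 samples), and they were set against the GFP- gut cells, the remaining cells of the same bowels (4 samples). The transgene marks cells in which the promoter of the endothelin receptor gene *Ednrb* is active, both populations come from embryos that carry it, and neither was treated. RNA was pooled where needed to reach 750 pg for a replicate, and the labels do not tie a replicate to an animal, so p-values measure the spread between these libraries, which may be partly technical.

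Glutamate opens the AMPA, kainate and NMDA receptors, which are cation channels built from several subunits, and also acts through metabotropic receptors that signal through G proteins. GABA and glycine open chloride channels made of subunits of one related family, and GABA acts in addition on the G protein-coupled GABA-B receptor. Fast signalling in the adult enteric nervous system rests mainly on acetylcholine, and glutamate and GABA are known as transmitters of smaller groups of enteric neurons. In immature central neurons GABA often depolarizes, because the cells hold much chloride.

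Read counts added up to between 13250893 and 13264785 in ENCDC samples and between 13257119 and 13267220 in gut samples. All 9 crest markers and all 7 neuronal markers were called higher in ENCDCs. Among the crest markers is *Ednrb*, whose promoter drives the GFP used for the sort. Its call and its part in the crest sum thus follow from the sort. Summed, the crest markers had 77220 to 96830 normalized counts in ENCDC samples, against 5427 to 6041 in gut samples, so that gut cells held 6.72% of the ENCDC level, and for the neuronal markers this was 2.42%. All 8 mesenchyme, 7 smooth muscle, 5 pericyte, 6 macrophage and 6 erythroid markers with an entry were lower in ENCDCs, where their sums stood at 1.12% to 6.93% of the gut level. The sums of 7 epithelial and 5 mesothelial markers stood at 14.4% and 4.41%, and 6 and 4 of them were lower. Endothelial markers stood at 71.3% of the gut level, with 6 lower and 1 higher, and enteroendocrine markers at 80.2%, with 5 lower, 1 higher and *Neurod1* and *Pax4* without a count in ENCDCs. Of 3 skeletal muscle markers with an entry, 2 were lower, *Myod1* had no count in ENCDCs, and the sum stood at 14.4%. ENCDC replicate 3 stood apart on the second principal component and had 20810 normalized counts of the mesenchyme markers, against 2976 to 8479 in the other ENCDC samples. Without that replicate 10 receptor genes were higher and 13 lower, and the 22 genes called with all libraries were all still called. What part the cells behind these markers had in the receptor values was not tested. In sorted bulk RNA, fewer cells with a transcript and less of it per cell cannot be told apart.

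The receptor genes split between the populations. The kainate genes *Grik2*, *Grik3* and *Grik5*, the AMPA genes *Gria2* and *Gria4*, the GABA-A gene *Gabrg3*, *Grin1* and *Gabbr1* were higher in ENCDCs. The NMDA genes *Grin2a*, *Grin2d* and *Grin3a*, the metabotropic genes *Grm7* and *Grm8*, *Gria1*, *Glrb* and GABA-A genes such as *Gabra4* and *Gabre* were lower there. Calls are at a Benjamini-Hochberg adjusted p under 0.05 from edgeR's quasi-likelihood test, adjusted over all 18866 tested genes. Of these genes, 17.0% were called higher in ENCDCs and 20.9% lower, and all 4 ENCDC samples lay above all 4 gut samples in 16.9% and below them in 21.3%. Of the 45 receptor genes, 40 had enough counts to be tested. Of these 40, 10 were higher in ENCDCs (25.0%), 12 were lower (30%) and 18 were not called. The ENCDC samples lay above the gut samples for 9 receptor genes and below them for 13. The median log2 fold change was -0.77 over the 40 receptor genes, also with *Grin2a* and *Grm6*, which had no count in ENCDCs, at their bounds, and -0.04 over all tested genes. A gene was tested where 1 of the populations had enough counts, and of the 40 genes, 21 passed in both, 4 in ENCDCs only and 15 in gut cells only. Of the 10 higher genes, 2 passed in ENCDCs only, and of the 12 lower genes, 6 passed in gut cells only. A gene that passed only where it is high is prone to be called, so these counts describe the receptor genes and support nothing further. Leaving out single libraries gave 8 to 10 higher receptor genes and 6 to 13 lower ones, with 6 lower without ENCDC replicate 1, 7 without gut replicate 2 and 6 without gut replicate 3. The plot of fold changes by family shows the spread.

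**Figure D1:**
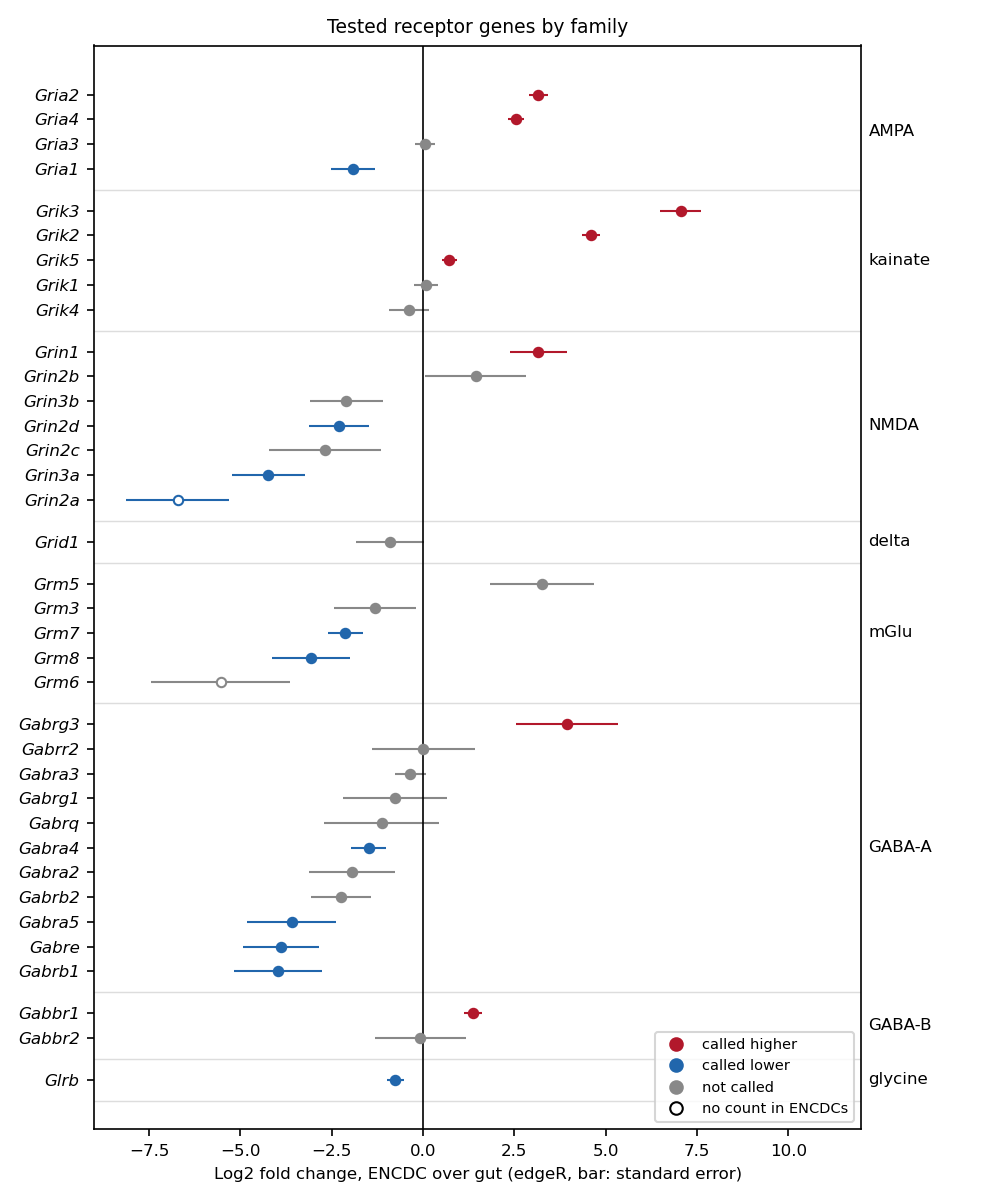
Tested receptor genes (36 genes) by family (y axis) and their edgeR log2 fold change, ENCDCs over gut cells (x axis), with standard errors as bars. Red stands for higher, blue for lower and grey for no call, and an open circle stands for a gene without reads in ENCDCs, where the fitted value is not a bound. The kainate genes *Grik3* and *Grik2* lie farthest to the right at 7.06 and 4.61, and the NMDA and GABA-A families each hold genes on both sides of 0.

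*Grik2*, *Grik3* and *Grik5* were higher in ENCDCs, no kainate gene was lower, and *Grik1* and *Grik4* were not called. *Grik2* encodes GluK2, a subunit that can form channels without other subunits, and lies on chromosome 10 (mm10, 49094833 to 49788766, minus strand). It had 1972, 1462, 1463 and 1994 normalized counts (read counts scaled by TMM factors) in ENCDC samples, against 99.1, 42.3, 61.2 and 79.2 in gut samples. Every ENCDC sample lay far above every gut sample, and ENCDC samples 1 and 4 were the highest. The means were 1723 ± 300.7 in ENCDCs, against 70.5 ± 24.3 in gut cells (n = 4 each, SD), a log2 fold change of 4.61 (standard error, SE, 0.25, edgeR adjusted p = 1.55e-07) or 24.4-fold. *Grik3*, which encodes GluK3, a kainate subunit of low glutamate affinity, lies on chromosome 4 (125490700 to 125714173, plus strand). It had 704.5, 888, 555 and 1075 normalized counts in ENCDC samples, against 0, 5.91, 15.8 and 1.98 in gut samples. The gut values amounted to 24 reads over 4 libraries, and 1 gut library had none. Its log2 fold change was 7.06 (SE 0.56, edgeR adjusted p = 2.73e-06), the largest among the receptor genes. Without gut replicate 3, the gut library with the most reads, the log2 fold change was 8.20. *Grik5* encodes GluK5, which needs a partner such as GluK2 to form a channel. It had 366.5, 233, 343 and 301 normalized counts in ENCDC samples and 215, 155, 208 and 176 in gut samples. The populations did not overlap but lay close, and the log2 fold change was 0.72 (SE 0.21, edgeR adjusted p = 0.0185). This call did not hold without ENCDC replicate 1 (edgeR adjusted p = 0.0562) and without gut replicate 2 (0.0620). *Grik1*, the gene of GluK1, had 84.7 to 159 normalized counts in ENCDC samples, against 80.9 to 171 in gut samples, and its log2 fold change was 0.08 (SE 0.33). *Grik4*, the gene of GluK4, had 10.2 to 53.2 in ENCDC samples, against 29.7 to 52.2 in gut samples, with a log2 fold change of -0.37 (SE 0.55).

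The sequences upstream of the starts of *Grik2* and *Grik3* are shown because these genes had the highest counts among the receptor genes in ENCDCs, and those of *Gria4* and *Gria2* follow below for the AMPA genes. They are the 250 bases before the start in RefSeq on GRCm38.p6, the build that mm10 is based on, and are written 5′ to 3′ on the strand of the gene. Capitals in *Grik3* mark GGGCGG on either strand, the letters of a GC box, and in *Grik2* nothing is marked because these letters are not in the window. The *Grik2* bases are chr10:49788755-49789004 (minus strand) and the *Grik3* bases are chr4:125490446-125490695 (plus strand).
Grik2: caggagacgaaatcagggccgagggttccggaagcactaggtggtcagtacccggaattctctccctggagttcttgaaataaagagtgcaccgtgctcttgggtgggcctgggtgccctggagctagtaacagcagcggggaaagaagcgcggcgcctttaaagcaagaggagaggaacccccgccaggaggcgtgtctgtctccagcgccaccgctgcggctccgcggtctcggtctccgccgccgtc
Grik3: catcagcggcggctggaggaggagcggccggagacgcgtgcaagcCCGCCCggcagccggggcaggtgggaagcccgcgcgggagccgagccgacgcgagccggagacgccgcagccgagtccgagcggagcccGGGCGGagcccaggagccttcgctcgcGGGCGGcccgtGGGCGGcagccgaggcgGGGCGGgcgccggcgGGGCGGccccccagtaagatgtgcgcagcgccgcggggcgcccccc

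Of the AMPA receptor genes, *Gria2* and *Gria4* were higher in ENCDCs, *Gria1* was lower and *Gria3* was not called. *Gria4*, the gene of GluA4, lies on chromosome 9 (4417896 to 4796234, minus strand). It had 794, 684, 515 and 799 normalized counts in ENCDC samples, against 86.5, 139, 139 and 112 in gut samples, with ENCDC sample 3 the lowest of its population but still well above the gut samples. Its log2 fold change was 2.55 (SE 0.22, edgeR adjusted p = 4.59e-06). *Gria2* encodes GluA2, the subunit that keeps calcium out of AMPA channels once its mRNA is edited, and lies on chromosome 3 (80681450 to 80802835, minus strand). It had 490.3, 493, 478 and 432 normalized counts in ENCDC samples, against 51.5, 69.9, 61.2 and 28.7 in gut samples. The ENCDC values were tight, with a mean of 473 ± 28.5 in ENCDCs, against 52.8 ± 17.8 in gut cells (n = 4 each, SD), a log2 fold change of 3.16 (SE 0.26, edgeR adjusted p = 4.18e-06). *Gria3*, the gene of GluA3, had 986, 707, 330.3 and 609 normalized counts in ENCDC samples and 539, 606.5, 616 and 764 in gut samples. The gut values lay within the range of the ENCDC values, and the log2 fold change was 0.06 (SE 0.27). *Gria1*, the gene of GluA1, had 32.5, 7.12, 63.3 and 16.5 normalized counts in ENCDC samples, against 159, 64.0, 145 and 85.1 in gut samples. The highest ENCDC sample and the lowest gut sample nearly met, and the log2 fold change was -1.92 (SE 0.60, edgeR adjusted p = 0.0270). The *Gria1* call did not hold without ENCDC replicate 1 (edgeR adjusted p = 0.0525) or 4 (0.0626) and without gut replicate 1 (0.0786) or 3 (0.0717). Without ENCDC replicate 3 its log2 fold change was -2.59.

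In the *Gria2* window the capitals mark AGCACC and GGACAGC, parts of the element that the neuronal repressor REST is known to bind, with 2 bases between them. They are on the strand opposite to the gene, so they appear as their reverse complement, and the first base shown in capitals is 171 bases upstream of the start. In the *Gria4* window nothing is marked because neither GGGCGG nor this element is there. The *Gria4* bases are chr9:4796235-4796484 and the *Gria2* bases are chr3:80802836-80803085, both on the minus strand.
Gria4: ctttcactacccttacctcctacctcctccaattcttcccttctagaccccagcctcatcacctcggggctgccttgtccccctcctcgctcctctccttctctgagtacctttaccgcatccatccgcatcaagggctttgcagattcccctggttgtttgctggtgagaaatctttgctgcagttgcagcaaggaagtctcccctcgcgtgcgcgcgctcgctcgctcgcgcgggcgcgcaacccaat
Gria2: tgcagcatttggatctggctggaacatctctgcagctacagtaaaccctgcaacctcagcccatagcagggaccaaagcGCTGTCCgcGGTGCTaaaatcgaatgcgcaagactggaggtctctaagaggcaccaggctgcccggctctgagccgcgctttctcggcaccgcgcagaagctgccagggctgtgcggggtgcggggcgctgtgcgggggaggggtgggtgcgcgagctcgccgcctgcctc

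Windows from 250 bases before to 50 bases after a start were found for 30 of the 45 receptor genes (37 windows), and for 8 of the 10 genes that were higher. GGGCGG on either strand was in 19 of the 37 windows and in 35.7% of all 32851 windows of this length. Among the 4 genes shown it was in the window of *Grik3*, which held it 7 times in all, 6 of them in the printed bases. The REST element letters with the same spacing were in 10 of 32851 windows on either strand, and *Gria2* was the receptor gene among them. The windows of the 8 higher genes held a median of 22 CpG dinucleotides (10 to 50), those of the 8 lower genes with a window 12.5 (2 to 33, 12 windows), and all windows a median of 7 with quartiles of 3 and 20. A match is a description of these letters and was not tested for use in these cells.

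**Figure D2:**
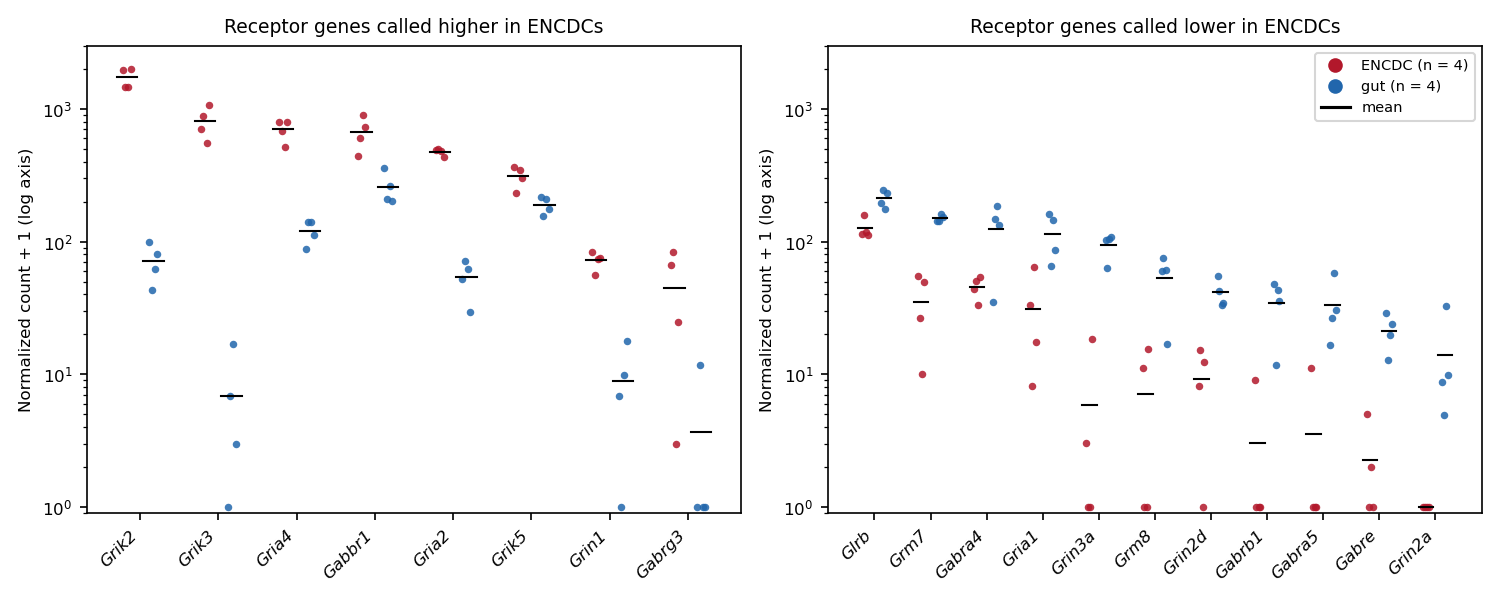
Normalized counts plus 1 (y axis, log scale) of 8 receptor genes called higher (left panel) and 11 called lower (right panel) in ENCDCs, 1 point per sample, with ENCDC samples in red and gut samples in blue (n = 4 each) and the mean as a black line. *Grik2* to *Grin1* do not overlap between the populations, *Gabrg3* and *Gabra4* do, and *Grin2a* had no count in ENCDC samples.

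NMDA receptor genes went apart. The gene of the obligatory subunit GluN1, *Grin1*, was higher in ENCDCs, while *Grin2a*, *Grin2d* and *Grin3a*, whose proteins join GluN1 in the channel, were lower. *Grin1* had 82.2, 54.9, 73.3 and 74.4 normalized counts in ENCDC samples, against 5.83, 0, 8.88 and 16.8 in gut samples. All ENCDC samples lay above all gut samples, and the log2 fold change was 3.16 (SE 0.78, edgeR adjusted p = 0.00836), or 3.83 without gut replicate 4. *Grin1* shares exon sequence with the antisense gene *Grin1os*, which had 7 reads over all 8 libraries. *Grin3a*, which encodes GluN3A, a subunit of young neurons that lowers calcium flow, had 2.03, 0, 0 and 17.6 normalized counts in ENCDC samples, against 102, 62.0, 104 and 107 in gut samples. The log2 fold change of *Grin3a* was -4.23 (SE 1.01, edgeR adjusted p = 0.00665), and without ENCDC replicate 4, which held 17 of the 19 ENCDC reads, it was -6.87. *Grin2d*, the gene of GluN2D, had 7.11, 14.2, 0 and 11.4 normalized counts in ENCDC samples, against 54.4, 41.4, 32.6 and 33.7 in gut samples. The populations did not overlap, with a log2 fold change of -2.29 (SE 0.82, edgeR adjusted p = 0.0466). That call did not hold without any single library but ENCDC replicates 2 and 3 (adjusted p of 0.0613 to 0.111) and, with all libraries, without the filter on low counts (0.0532). *Grin2d* also shares exon sequence with the antisense gene *Gm45441*, which had 87 reads, and the library kit did not keep strand. *Grin2a*, the gene of GluN2A, was without a count in the ENCDC samples and had 7.77, 3.94, 31.6 and 8.91 in gut samples. Against a floor of 3 reads over the ENCDC libraries it was at least 17.7-fold lower (edgeR adjusted p = 0.00649), a call kept in every alternative, also without gut replicate 3, which held most of its gut reads. Of the other subunit genes, *Grin2b* had 0 to 29.9 in ENCDC samples, against 0 to 11.8 in gut samples, and *Grin2c* had 0 to 10.2 in ENCDC samples, against 0 to 40.6 in gut samples. *Grin2c* was called without ENCDC replicate 2 (edgeR adjusted p = 0.0294), which held all its ENCDC reads. *Grin3b* had 3 reads in ENCDCs and 15 in gut cells, a gut-to-ENCDC ratio of 5 with an exact 95% counting interval of 1.41 to 26.9, and shares exon sequence with the more abundant *Tmem259* on the opposite strand.

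The delta receptor gene *Grid1* was not called and had 0 to 12.1 in ENCDC samples, against 5.91 to 21.4 in gut samples.

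No G protein-coupled glutamate receptor gene was higher in ENCDCs, and the group III genes *Grm7* and *Grm8*, whose proteins lower transmitter release at nerve endings, were lower. *Grm7* had 53.8, 25.4, 9.04 and 48.6 normalized counts in ENCDC samples, against 142, 142, 160 and 154 in gut samples. The gut values were tight and all ENCDC samples lay below them, with a log2 fold change of -2.12 (SE 0.47, edgeR adjusted p = 0.00453). *Grm7* shares exon bases with the antisense gene *Gm20387*, which had 19 reads. *Grm8* had 10.2, 0, 0 and 14.5 normalized counts in ENCDC samples, against 59.3, 74.8, 60.2 and 15.8 in gut samples. Gut sample 4 came close to the ENCDC samples, and the log2 fold change was -3.07 (SE 1.06, edgeR adjusted p = 0.0409). The *Grm8* call did not hold without ENCDC replicate 1 (edgeR adjusted p = 0.0562) or 2 (0.0590) and without gut replicate 1 (0.0819), 2 (0.0940) or 3 (0.0828), and without ENCDC replicate 4 its log2 fold change was -3.91. *Grm5*, a group I gene whose protein acts through phospholipase C, had 15.2, 0, 2.01 and 24.8 normalized counts in ENCDC samples and 0, 0.985, 2.96 and 0 in gut samples. It was not called (edgeR adjusted p = 0.0950) except without ENCDC replicate 2 (0.0402). *Grm6* was without a count in ENCDC samples and had 0.971, 17.7, 3.95 and 0 in gut samples, with most reads in gut replicate 2. By pooled counts it was at least 7.67-fold lower, with an adjusted p of 0.0510 from edgeR, or 0.0299 without gut replicate 4. *Grm3* had 0 to 19.3 in ENCDC samples, against 11.8 to 26.7 in gut samples and was not called. *Grm4*, with 62 reads in ENCDCs in 2 libraries and 8 in gut cells, was not tested.

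The GABA-B receptor needs the products of both *Gabbr1*, which binds GABA, and *Gabbr2*, which couples to the G protein. *Gabbr1*, on chromosome 17 (37045966 to 37075067, plus strand), had 439.6, 599.9, 891.5 and 724 normalized counts in ENCDC samples, against 356.5, 209.7, 263 and 200 in gut samples. ENCDC sample 1 and gut sample 1 came close without overlapping, and the log2 fold change was 1.37 (SE 0.25, edgeR adjusted p = 0.00132). *Gabbr2* was sparse in both populations, with 28.4, 16.3, 0 and 0 normalized counts in ENCDC samples and 16.5, 20.7, 2.96 and 6.93 in gut samples, and was not called.

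The GABA-A receptor is usually made of alpha, beta and gamma subunits, and its genes went both ways. Of the beta genes, *Gabrb1* was lower in ENCDCs. *Gabrb1* had 8.12, 0, 0 and 0 in ENCDC samples, against 46.6, 10.8, 42.4 and 34.6 in gut samples, a log2 fold change of -3.97 (SE 1.21, edgeR adjusted p = 0.0234). All 8 of its ENCDC reads were in replicate 1, without which no count was left, and the call did not hold without gut replicate 1 (edgeR adjusted p = 0.0532). *Gabrb2* had 15.2, 21.4, 0 and 56.8 in ENCDC samples and 129, 119, 134 and 64.3 in gut samples. The populations did not overlap, but the adjusted p of 0.0508 missed the threshold, while 8 of 15 alternatives called it lower, with 0.0109 without ENCDC replicate 3 and 0.0145 without ENCDC replicate 4.

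Of the gamma genes, *Gabrg3* was higher in ENCDCs. *Gabrg3* had 66.0, 82.4, 2.01 and 23.8 in ENCDC samples and 0, 10.8, 0 and 0 in gut samples. ENCDC sample 3 was low and gut sample 2 lay above it, and the log2 fold change was 3.95 (SE 1.40, edgeR adjusted p = 0.0452). That call did not hold without ENCDC replicate 1 (edgeR adjusted p = 0.0884), 2 (0.101) or 4 (0.0517) and without gut replicate 1 (0.0980), 3 (0.0988) or 4 (0.0969), and gut replicate 2 held all 11 gut reads. *Gabrg1* had 14 reads in ENCDCs and 25 in gut cells and was not called.

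The alpha genes *Gabra4* and *Gabra5* were lower in ENCDCs. *Gabra3* had the highest mean in ENCDCs among the alpha genes, with 66.0, 137, 33.1 and 91.9 normalized counts in ENCDC samples and 84.5, 119, 77.9 and 138 in gut samples. The populations overlapped, and the log2 fold change was -0.35 (SE 0.42). *Gabra4* had 42.6, 49.8, 32.1 and 52.7 in ENCDC samples, against 34.0, 148, 183.5 and 133 in gut samples, so that gut sample 1 lay among the ENCDC samples. The log2 fold change of *Gabra4* was -1.49 (SE 0.47, edgeR adjusted p = 0.0285), a call that did not hold with voom and limma (adjusted p = 0.1002), without ENCDC replicate 1 (0.0603) and without gut replicate 2 (0.0677), 3 (0.0966) or 4 (0.0625). *Gabra5*, whose protein is known from receptors outside synapses, had 10.15, 0, 0 and 0 in ENCDC samples, against 15.5, 25.6, 57.2 and 29.7 in gut samples. Its log2 fold change was -3.59 (SE 1.22, edgeR adjusted p = 0.0384), and without ENCDC replicate 1 no ENCDC count was left. The *Gabra5* call did not hold without ENCDC replicate 2 (edgeR adjusted p = 0.0687) or 4 (0.0675) and without gut replicate 2 (0.0597), 3 (0.0980) or 4 (0.0634). *Gabra2* had 0, 19.3, 19.1 and 0 in ENCDC samples and 4.86, 53.2, 48.4 and 42.6 in gut samples and was not called.

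*Gabre*, which encodes the epsilon subunit, was lower in ENCDCs, with 4.06, 0, 1.00 and 0 normalized counts in ENCDC samples, against 28.2, 11.8, 18.8 and 22.8 in gut samples. Its log2 fold change was -3.88 (SE 1.04, edgeR adjusted p = 0.0126), or -5.47 without ENCDC replicate 1. The theta gene *Gabrq* had 0, 0, 0 and 29.9 in ENCDC samples and 9.71, 20.7, 0 and 35.6 in gut samples and was called only without ENCDC replicate 4 (edgeR adjusted p = 0.0292), which held all its ENCDC reads. The rho gene *Gabrr2* had 28 reads in ENCDCs and 29 in gut cells and was not called. *Gabrd*, the gene of the delta subunit, with 12 gut reads and none in ENCDCs, and *Gabrr3*, with 1 gut read, were not tested.

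Many GABA-A genes lie in clusters, and neighbors differed in their calls. On chromosome 7, *Gabrg3* (56716465 to 57387188) was higher in ENCDCs and *Gabra5* (57407672 to 57510059) was lower. Both calls were lost without some single libraries, as given above. The 4 genes on chromosome 5 were *Gabra4* and *Gabrb1*, both lower, and *Gabrg1* and *Gabra2*, neither called. The log2 fold changes of *Gabrg1* and *Gabra2* were negative as well, at -0.77 and -1.94. *Gabra4* and *Gabrb1* run in opposite directions and share 46 exon bases. On the X chromosome *Gabre* was lower, and *Gabra3* and *Gabrq* were not called, with negative log2 fold changes of -0.35 and -1.13.

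Of the glycine receptor genes, *Glrb* was tested and was lower in ENCDCs. Its beta subunit ties the receptor to the scaffold protein gephyrin and forms no channel without an alpha subunit. *Glrb* had 113, 158, 117.5 and 112 normalized counts in ENCDC samples, against 193, 245, 176 and 232 in gut samples. The populations did not overlap, and the log2 fold change was -0.76 (SE 0.23, edgeR adjusted p = 0.0230). That call did not hold without ENCDC replicate 1 (edgeR adjusted p = 0.0574) or 4 (0.0512), without gut replicate 2 (0.0572) or 4 (0.0625), and without the filter on low counts (0.0503). *Glrb* lies at 80843599 to 80913660 on chromosome 3, upstream of *Gria2*, which was higher in ENCDCs. *Glra3*, an alpha gene, had 9 reads in 1 ENCDC library and none in gut cells and was not tested.

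Levels of different genes were compared as normalized counts per kilobase of exon. Among the 5 highest in ENCDCs were *Grik2* with 130.1 ± 22.7 normalized counts per kilobase, *Gria4* with 111 ± 21.1, *Grik3* with 89.8 ± 25.1 and *Gabbr1* with 85.5 ± 24.6 (SD, n = 4). Neighbors in this order differed by less than the larger of their SDs. In gut cells the highest were *Gria3* with 64.0 ± 9.63, *Glrb* with 45.4 ± 6.97, *Grik5* with 36.5 ± 5.44, *Gabbr1* with 33.1 ± 9.24 and *Gabra3* with 26.7 ± 7.23 (SD, n = 4). In that order *Gria3* and *Glrb* each lay above the next gene by more than either SD, and the others differed by less. With the length of the longest transcript in place of all exon bases, 4 of the 5 highest genes in ENCDCs were still among the 5 highest. *Grik3*, at 89.8, was then no longer among them, and *Gria3*, at 126.4, was.

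By these levels the make-up of the families differed, as the stacked plot of subunit shares shows. All kainate genes together had 303 ± 39.7 normalized counts per kilobase in ENCDCs, against 65.8 ± 6.80 in gut cells (n = 4 each, SD), a ratio of 4.60 of ENCDCs over gut cells. *Grik2* made up 42.8% ± 2.58 of the kainate sum in ENCDCs and 7.94% ± 2.08 in gut cells, and *Grik5* made up 20.05% ± 4.35 in ENCDCs and 55.4% ± 6.10 in gut cells. The AMPA sum stood at a ratio of 2.03. *Gria4* made up 52.2% ± 4.17 of it in ENCDCs and 18.0% ± 3.72 in gut cells, and *Gria3* made up 30.3% ± 7.17 in ENCDCs and 60.9% ± 6.71 in gut cells. *Gria2* made up 14.8% ± 3.46 in ENCDCs and 3.27% ± 1.20 in gut cells. The AMPA shares depend on the length used. Per kilobase of the longest transcript, *Gria4* and *Gria3* were nearly level in ENCDCs, with means of 128.3 and 126.4. In gut cells these means were 21.9 and 121.3. The NMDA sum was small, at 10.2 ± 1.83 in ENCDCs and 19.9 ± 5.19 in gut cells, with *Grin1* at 74.1% ± 19.0 in ENCDCs and 3.71% ± 2.94 in gut cells. Metabotropic glutamate receptor genes together stood at a ratio of 0.328 and the GABA-B genes at 2.50. These shares are descriptions without a test, and they follow in part from the calls above.

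**Figure D3:**
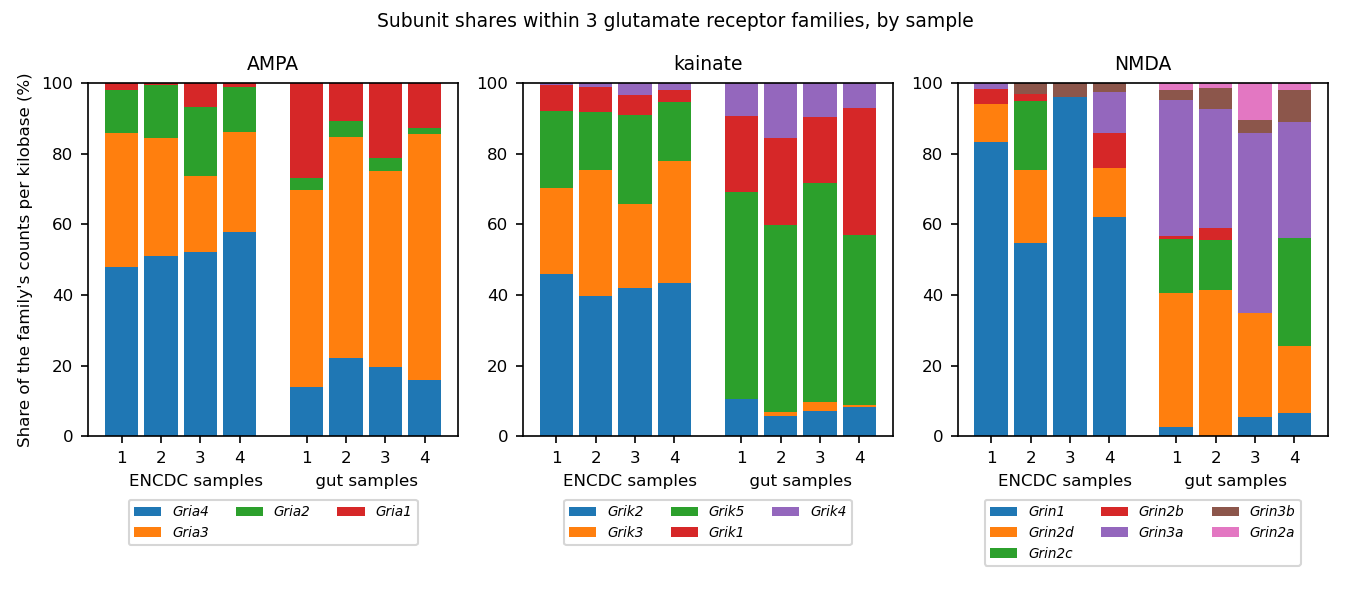
Share of each subunit gene in its family's normalized counts per kilobase of exon (y axis, %) in each ENCDC and gut sample (x axis, 4 samples each) for 3 families. *Grik2* and *Grik3* fill most of the kainate bars in ENCDC samples and *Grik5* and *Grik1* those in gut samples.

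Genes that act with these receptors were taken from 6 lists, of which 98 of 103 genes had an entry and 88 were tested. Of these 88, 31 were higher in ENCDCs (35.2%) and 15 were lower (17.0%), against 17.0% and 20.9% of all tested genes, and their median log2 fold change was 0.33. The lists were written with earlier results of these data known. On the list of glutamate receptor auxiliary subunits 7 of 24 genes were higher (29.2%) and 3 were lower (12.5%). *Cacng4*, whose protein carries AMPA receptors to the surface, had 1907, 2014, 989 and 1707 normalized counts in ENCDC samples, against 209, 143, 196 and 180.2 in gut samples. The populations did not overlap, with a log2 fold change of 3.18 (SE 0.23, edgeR adjusted p = 1.22e-06). *Neto2*, a partner of kainate receptors, had 983, 1042, 1030 and 1140 in ENCDC samples, against 493.5, 447, 695 and 428 in gut samples, a log2 fold change of 1.02 (SE 0.16, edgeR adjusted p = 4.48e-04). The cornichon genes *Cnih1* and *Cnih2* rose by 0.37 and 0.61 on the log2 scale. *Syndig1*, *Gsg1l* and *Shisa9*, whose proteins modulate AMPA receptors, fell by 1.80, 2.48 and 4.83 on the log2 scale. Without ENCDC replicate 3 no *Shisa9* count was left in ENCDCs.

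Of 21 scaffold genes, which hold glutamate receptors at synapses, 10 were higher in ENCDCs (47.6%) and 2 were lower (9.52%). Over all tested genes these shares were 17.0% and 20.9%. *Dlg2*, which encodes PSD-93, had 1168, 1110, 787 and 1349 normalized counts in ENCDC samples, against 53.4, 65.0, 60.2 and 17.8 in gut samples. The populations lay far apart, with a log2 fold change of 4.49 (SE 0.33, edgeR adjusted p = 1.65e-06). *Dlg1*, which encodes SAP97 of the same family, went the other way, with 416, 345, 505 and 504 in ENCDC samples and 889.8, 828, 911 and 1002 in gut samples, and fell by 1.04 on the log2 scale. *Nsf*, *Dlgap4* and *Pick1* rose by 0.34, 0.81 and 0.65 on the log2 scale. *Grip2*, whose protein binds AMPA receptors, was without a count in all ENCDC samples. In gut samples it had 10.7, 3.94, 0 and 24.75 normalized counts, so the populations overlapped. By the pooled 40 gut reads it was at least 13.33-fold lower. That call did not hold with voom and limma (adjusted p = 0.0567), and the gene could not be tested without gut replicate 1, 2 or 4. *Nsf* was not called under 12 of 15 alternatives, with edgeR adjusted p of 0.0632 to 0.128 where ENCDC replicate 1 or 4 or a gut replicate was left out. *Camk2b*, the kinase gene CaMKII beta, named after its values were seen, had a mean of 1006 ± 145 in ENCDCs, against 26.6 ± 10.6 in gut cells (n = 4 each, SD). *Camk2a* on the same list was not called, with means of 25.0 in ENCDCs and 33.4 in gut cells.

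Of 17 tested partner genes of GABA and glycine receptors, 5 were higher in ENCDCs (29.4%) and 3 were lower (17.6%). Over all tested genes 17.0% were higher and 20.9% lower, so the lower share was near that of all genes. *Lhfpl4*, whose protein brings GABA-A receptors to synapses, had 381, 542, 471 and 627 normalized counts in ENCDC samples, against 6.80, 23.6, 12.8 and 37.6 in gut samples. All ENCDC samples lay above all gut samples, and the log2 fold change was 4.64 (SE 0.42, edgeR adjusted p = 8.08e-06). *Ajap1*, whose protein binds GABA-B receptors, rose by 3.47 on the log2 scale, *Gphn*, the gene of the scaffold gephyrin, by 0.76, and *Clptm1*, whose protein holds GABA-A receptors inside the cell, by 0.34. *Kctd12b* and *Kctd8*, of the family of GABA-B auxiliary subunits, fell by 2.07 and 4.99, and *Lhfpl3* fell by 3.25, on the same scale. On that scale *Kctd12b* stood at -2.70 without ENCDC replicate 4, *Kctd8* at -6.02 without ENCDC replicate 1 and *Lhfpl3* at -4.55 without ENCDC replicate 2. *Clptm1* was not called without gut replicate 1 (edgeR adjusted p = 0.0555) or 2 (0.0581). *Lhfpl3* was not called without ENCDC replicate 1 (edgeR adjusted p = 0.0563) or 4 (0.0544), without gut replicate 1 (0.0625), or without the filter on low counts (0.0614).

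The list for the supply of glutamate, GABA and glycine held 18 tested genes, 8 higher in ENCDCs (44.4%) and 4 lower (22.2%). Among all tested genes 17.0% were higher and 20.9% lower, so the lower share was near that of all genes. The genes with the highest counts were of general metabolism. *Phgdh* and *Psat1* of serine synthesis rose by 0.48 and 0.94, *Shmt2*, which makes glycine from serine in mitochondria, by 0.37, and *Abat*, which breaks GABA down, by 0.53, all on the log2 scale. *Shmt2* overlapped between the populations and was called under 4 of 15 alternatives, with edgeR adjusted p of 0.0592 to 0.127 without ENCDC replicate 3 or 4 or any gut replicate. *Phgdh* was not called without gut replicate 1 (edgeR adjusted p = 0.0550), 2 (0.0611) or 4 (0.0592). *Gldc*, of the glycine cleavage system, named after its values were seen, had a mean of 1357 ± 333 in ENCDCs, against 47.8 ± 28.1 in gut cells (n = 4 each, SD). The glutamate uptake genes *Slc1a3* and *Slc1a6*, the GABA transporter gene *Slc6a13* and the glycine transporter gene *Slc6a9* fell by 2.63, 1.86, 3.40 and 2.09 on the log2 scale. *Slc1a2*, another glutamate uptake gene on the list, went the other way. It had 28.4, 29.5, 102 and 102 normalized counts in ENCDC samples, against 0, 5.91, 10.85 and 6.93 in gut samples. The log2 fold change of *Slc1a2* was 3.445 (SE 0.86, edgeR adjusted p = 0.00881), and its call was not followed through the alternatives. *Slc1a6* was not called without ENCDC replicate 1 (edgeR adjusted p = 0.0620) or 4 (0.0608), without gut replicate 1 (0.0634) or 2 (0.0675), or without the filter on low counts (0.0562), and *Slc6a13* was not called without gut replicate 2 (0.0556). The genes whose products make or load the transmitters had few reads. *Gad1*, the gene of a GABA-making enzyme, had 11 reads in ENCDCs and 5 in gut cells, and *Gad2* had none in ENCDCs and 1 in gut cells. *Slc17a6*, the gene of a vesicular glutamate transporter, had 28 reads in ENCDCs and none in gut cells, and *Slc17a7* had 7 in ENCDCs and 13 in gut cells. None of these 4 genes had enough counts to be tested, and *Slc17a8*, *Slc32a1* and *Slc6a5* had no entry.

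Of 5 chloride transporter genes, which set the direction of GABA and glycine currents, 3 were lower in ENCDCs and 1 was higher. *Slc12a2*, which encodes the chloride importer NKCC1, had 956, 746, 871 and 1099 normalized counts in ENCDC samples, against 1709, 1528, 1798 and 1826 in gut samples, with a log2 fold change of -0.90 (SE 0.13, edgeR adjusted p = 2.38e-04). *Slc12a5*, which encodes the neuronal chloride exporter KCC2, had 10.15, 1.02, 5.02 and 23.8 in ENCDC samples, against 90.3, 28.6, 54.3 and 67.3 in gut samples, and fell by 2.58 on the log2 scale (edgeR adjusted p = 0.0210). The *Slc12a5* call did not hold without gut replicate 1 (edgeR adjusted p = 0.0628), and without ENCDC replicate 4 the log2 fold change was -3.44. Neither the importer nor the neuronal exporter gene overlapped between the populations. *Slc12a4*, which encodes the exporter KCC1, fell by 0.45, and *Slc12a7*, which encodes the exporter KCC4, rose by 0.63, with overlap between the populations for KCC4. *Slc12a4* was not called without ENCDC replicate 2 (edgeR adjusted p = 0.0728) or 4 (0.0628) or gut replicate 3 (0.0738) or 4 (0.0759), and *Slc12a7* was not called without gut replicate 4 (0.0547). None of the 3 genes on the list for the editing of receptor mRNA (*Adar*, *Adarb1* and *Adarb2*) was called.

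**Figure D4:**
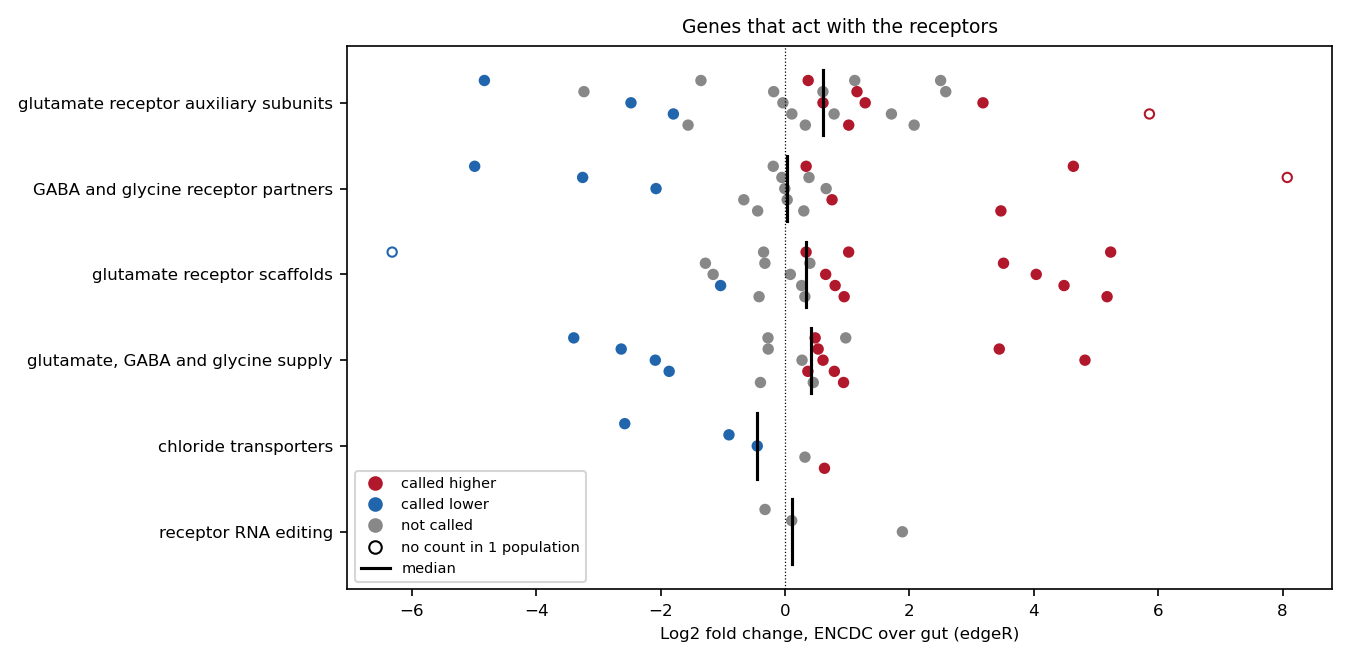
Partner genes by list (y axis, 6 lists, 1 point per tested gene) and their edgeR log2 fold change, ENCDCs over gut cells (x axis), in red for higher, blue for lower and grey for no call. A black line gives each list's median, and an open circle stands for a gene without reads in 1 of the populations, where the fitted value is not a bound. The scaffold list has 10 genes called higher and 2 lower, and the chloride transporter list 1 higher and 3 lower. Of all tested genes, 17.0% were higher and 20.9% lower.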

How the data were processed

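Bulk mRNA-seq of 4 ENCDC and 4 gut samples sorted by GFP was analysed. The authors aligned reads to mm10 with STAR 2.4.2a and resampled them with PORT, and the deposited values are its minimum read counts per gene. The design text of the series speaks of CPM, but the deposited values are whole numbers with near equal totals and were used as counts. PORT evens out depth, so totals do not show how many reads each library had, and the kit did not keep strand. The authors themselves compared populations with voom and limma.

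Of 29092 gene IDs, 29035 matched GENCODE M21. A gene was tested where its mean count was at least 3 with reads in at least 3 of 4 samples of either population. TMM factors, normalized counts and the quasi-likelihood test came from edgeR 4.0.16 (R 4.3.3), two-sided, with Benjamini-Hochberg adjustment over all tested genes and a threshold of 0.05. A fold against a population without reads used a floor of 3 reads over its libraries, and counting intervals cover counting error only. Alternatives were RLE factors, no factors, no filter on low counts, a mean count of at least 10, voom and limma (3.58.1), DESeq2 (1.42.0), the replicate number as a block, and leaving out each library. Per-kilobase levels used all exon bases of a gene or its longest transcript. Tables and plots were made with Python 3.11.15, pandas 2.3.3 and matplotlib 3.10.9.

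The receptor genes and the lists were chosen with earlier results of these data known. Called receptor genes whose normalized counts averaged at least 10 where they were higher are given sample by sample, apart from a few that are counted but not reported here, the other receptor genes by range or reads. From each partner list, up to 4 called genes were named by highest count, as were all called against the list's main direction, and other names were added after their values were seen.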

Additional observations from a re-analysis of the deposited data

Results flagged for a closer look

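Of 38 groups of 4 samples formed by 19 called receptor genes in both populations, 6 held a sample whose gap to its nearest neighbor exceeded Dixon's 95% critical share of the group's range. Chance gives about 1 such group in 20 for continuous values, a rate that does not hold for sparse counts, and in 3 of the 6 groups (*Gabra5* and *Gabrb1* in ENCDCs, *Gabrg3* in gut cells) the other samples were all at 0. In ENCDCs the samples apart were replicate 1 for *Gabra5* with 10.15 normalized counts and for *Gabrb1* with 8.12, replicate 2 for *Glrb* with 158, and replicate 4 for *Grin3a* with 17.6. In gut cells they were replicate 2 for *Gabrg3* with 10.8 and replicate 2 for *Grin3a* with 62.0. In 4 of the 6 groups, those of *Gabra5*, *Gabrb1* and *Grin3a* in ENCDCs and *Gabrg3* in gut cells, the sample apart held all or nearly all reads of its population.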

How the results depend on the processing

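Over 15 alternatives, 12 of the 22 called receptor genes kept their call in each one that could test them. Among them were *Grik2*, *Grik3*, *Gria2*, *Gria4*, *Grin1* and *Gabbr1*, all higher in ENCDCs, and *Grin2a*, *Grin3a*, *Grm7* and *Gabre*, all lower. Of these, *Grin2a*, *Grin3a* and *Gabre* passed the filter on low counts in gut cells only, where they are high, and are thus prone to be called. Of the 18 receptor genes not called, 6 were called under some alternative. The count of higher receptor genes was 10 under each alternative that kept all libraries and 8 to 10 with a library left out. The count of lower ones was 12, with 8 to 14 under alternatives that kept all libraries and 6 to 13 with a library left out. Over all tested genes, 3212 were higher and 3946 lower, with 2670 to 3535 higher and 3311 to 4243 lower when a library was left out. Of the partner genes 31 were higher and 15 lower, with 26 to 32 and 11 to 16 when a library was left out.

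A change of sign occurred for 4 receptor genes, none of them called under any alternative. *Gabrr2* (0.00 on the log2 scale) had -0.048 with RLE factors, -0.050 without factors, -0.56 with voom and limma, -0.050 with DESeq2 and -0.53 with the replicate block, and -1.35 to 0.41 with a library left out. *Gria3* (0.06) had -0.034 with voom and limma, -0.030 with the replicate block and -0.20 to 0.28 with a library left out. *Gabbr2* (-0.07) had -1.10 to 0.34 and *Grik1* (0.08) had -0.091 to 0.36 with a library left out. The causes were not tested.

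Replicate numbers are shared by both populations, but the labels do not say that a number marks shared embryos. The correlations of same-numbered deviations were 0.006, 0.03, -0.01 and 0.005. ENCDC replicates 1 and 2 correlated best with the gut sample of their own number, and replicates 3 and 4 with another. The spread between libraries may be partly technical, so these values cannot settle whether a number marks shared embryos. With the replicate block 2609 genes were higher and 3324 lower, and of the receptor genes 10 were higher and 8 lower, as *Gabra4* (edgeR adjusted p = 0.0982), *Glrb* (0.0532), *Grin2d* (0.0717) and *Grm8* (0.0955) were not called. Of the partner genes named above, the replicate block also ended the calls of *Slc12a7* (edgeR adjusted p = 0.0511), *Grip2* (0.0546), *Slc1a6* (0.0572), *Shmt2* (0.0627), *Lhfpl3* (0.0761) and *Nsf* (0.110). Counts limit the sparse genes most, since several receptor genes had fewer than 30 reads in a population and rest on 1 library there.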
